A study of Mus musculus with 4 samples.

Results

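The genes described here are 10 transcripts of the mesenchymal matrix: the small leucine-rich proteoglycans Dcn, Lum and Bgn, the matricellular proteins Sparc and Postn, the adhesive glycoprotein Fn1, the growth factor receptors Pdgfra and Pdgfrb, and the cell surface proteins Fap and Thy1. They were chosen by symbol from the 23951 rows of the deposited expression table that are not spike-ins, and all 10 had a row. RNA had been sequenced from mouse mammary tumor cells sorted for a yellow fluorescent reporter, in 2 libraries with a wild-type title and 2 with a knockout title for Lsd1. All mice were female, carried the MMTV-PyMT transgene, in which a mammary-active viral promoter drives the polyoma middle T oncogene, and carried the Rosa26-Stop-YFP reporter (R26Y), and all had received the adenovirus Ad-K8-Cre into the ducts 2 to 3 months before the sort. The control mice were Lsd1+/+, and the design text gives the experimental mice the conditional allele Lsd1L/L. Yet the knockout-titled samples carry a tissue label that reads Lsd1+/+, against both the design text and their own genotype label. Groups follow the titles, and these are called the knockout-labelled libraries. Cre stood under the Krt8 promoter, which is active in luminal epithelium, so that the reporter should mark luminal cells and their progeny. Ages are not given, and neither is whether animals were pooled or shared by libraries, so the p-values below rest on library-to-library spread, which may be technical.

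Fibroblasts build the collagen-rich matrix around mammary ducts and tumors. Decorin, lumican and biglycan bind collagen fibrils and shape their assembly, while SPARC and periostin are matricellular proteins, which modify how cells and fibres interact more than they bear load. Platelet-derived growth factor (PDGF) signals to fibroblasts through PDGFRα and PDGFRβ. It signals to the pericytes and muscle cells of vessel walls (mural cells) through PDGFRβ. FAP is a membrane serine protease known from activated tumor fibroblasts, and THY1 (CD90) is a lipid-anchored surface protein of fibroblasts that mouse T cells also carry.

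Promoter sequences were matched for 4 of the 10 genes in RefSeq's table of build GRCm38.p6, which is not the build mm9 of the deposited values. The 250 bases before the start site are shown for Postn, Sparc and Bgn, the 3 matched genes that were higher in both wild-type libraries than in both knockout-labelled libraries. An entry was shown where a GENCODE transcript starts within 10 bases of it. Capitals mark matches on either strand to any of 5 motifs. The first motif was the TATA box, searched as TATAAA. The second was the GC box that Sp1 factors bind, searched as GGGCGG. The third was the box searched by its own letters, CCAAT. The fourth was the AP-1 site of Fos and Jun proteins, searched as TGANTCA. The last was the site of TEAD factors, searched as GGAATG. 
Postn, chr3:54360857-54361106, plus strand: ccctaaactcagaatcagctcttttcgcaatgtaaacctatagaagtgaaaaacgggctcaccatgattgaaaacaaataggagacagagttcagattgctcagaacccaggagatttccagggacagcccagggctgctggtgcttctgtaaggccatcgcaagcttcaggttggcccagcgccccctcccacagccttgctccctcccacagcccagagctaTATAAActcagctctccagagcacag
Sparc, chr11:55420081-55420330, minus strand: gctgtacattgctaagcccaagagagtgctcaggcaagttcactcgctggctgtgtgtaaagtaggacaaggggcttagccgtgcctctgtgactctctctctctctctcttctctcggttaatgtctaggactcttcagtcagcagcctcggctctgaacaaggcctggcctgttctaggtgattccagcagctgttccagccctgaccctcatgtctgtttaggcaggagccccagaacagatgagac
Bgn, chrX:73483351-73483600, plus strand: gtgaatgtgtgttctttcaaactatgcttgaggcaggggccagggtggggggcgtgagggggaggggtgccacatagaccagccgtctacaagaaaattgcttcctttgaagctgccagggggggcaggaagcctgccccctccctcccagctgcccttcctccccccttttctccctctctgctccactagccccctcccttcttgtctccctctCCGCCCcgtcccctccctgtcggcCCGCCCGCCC
The Postn window held 1 TATA box, from 26 to 21 bases before the start, and the Bgn window held 3 GC boxes on the minus strand, the last pair overlapping by 2 bases. The Sparc window held no match to the 5 motifs. Of 32851 windows of this length in the table, 12.4% held the TATA box, 32.7% the GC box, 33.8% the CCAAT box, 6.75% the AP-1 site and 12.6% the TEAD site. These 3 windows thus share none of the searched motifs.

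The deposited unit was read as FPKM, fragments scaled by transcript length and library size, and FPKM totals were between 401786 and 449838 per library. No read totals were given; the spacing of the lowest values gave an estimated depth of roughly 19500000 to 23600000 reads per library. Kdm1a, which encodes LSD1, measured 52.5 and 22.9 (wild-type) versus 20.2 and 22.8 FPKM (knockout-labelled) (limma, adjusted p = 0.34), so the targeted gene checks the labels only in part. The wild-type libraries were less alike (Pearson r across genes 0.85) than those labelled knockout (0.98); genes are not independent replicates.

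On the log2(FPKM + 1) scale, 7 of the 9 tested members had a lower mean in the knockout-labelled libraries and 2, Fn1 and Thy1, a higher one (in FPKM the Fn1 mean was lower, 3.77 against 3.92), and none passed the threshold. The second wild-type library was the highest of the 4 for 9 of the 10 genes. The 10 genes summed to 336 and 1115 (wild-type) versus 188 and 192 FPKM (knockout-labelled). Genes were tested with limma on log2(FPKM + 1) where at least 2 libraries reached 1 FPKM, which Pdgfra did not. With a Benjamini-Hochberg adjusted p under 0.05 as the threshold, 0 of 9 members were called, where 16.5% of all 11138 tested genes were (9.51% higher and 6.99% lower); at an unadjusted p under 0.05 there were 5 of 9 (limma), against 39.5% of all genes. The members' median difference on the log2(FPKM + 1) scale was -0.96, against 0.08 over all tested genes. Below both wild-type libraries in both knockout-labelled libraries were 5 of the 9 (32.1% of all tested genes), and above both was 1 (39.3% of all tested genes). Calls rested on both knockout-labelled libraries and on the filter: without the first or the second of them 0 of all tested genes passed (limma; 1385 and 1346 at an unadjusted p under 0.05), and with no filter on low values 1 of 23951 genes did (4462 unadjusted). That gene is in none of the lists described here, so every call given below from all 4 libraries ended in these 3 fits. The fits without a knockout-labelled library take their spread from the wild-type pair alone. There the members' median difference was -1.09 (first left out) and -0.84 (second left out), against -0.96 with all 4 libraries. With 2 libraries a group, an exact permutation test of a single gene cannot go below p = 0.333 (two-sided).

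**Figure D1:**
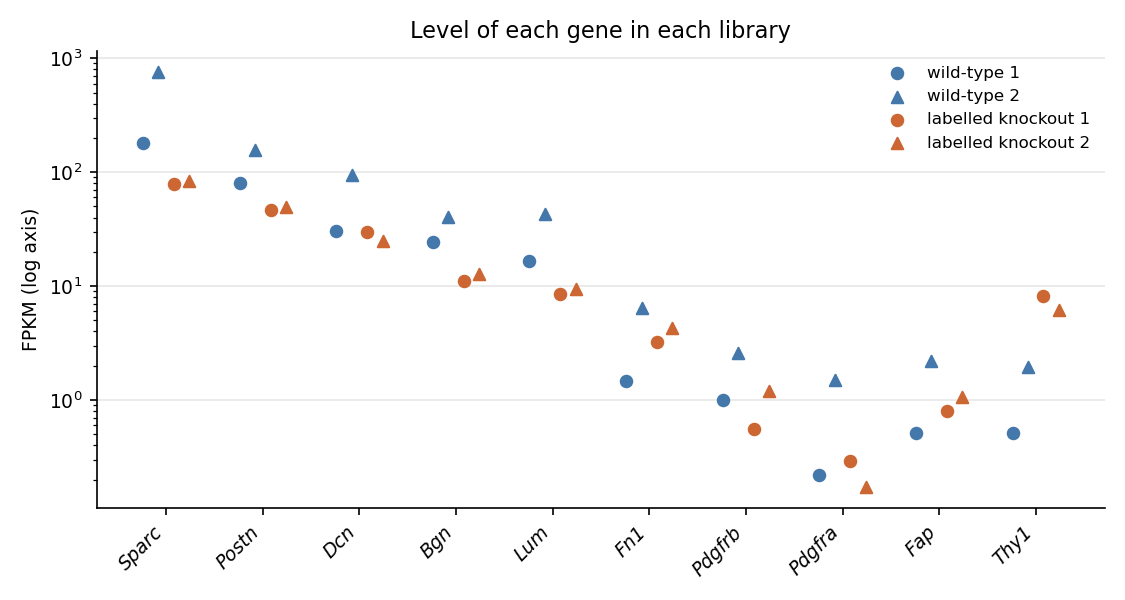
FPKM (log axis) of the 10 genes in each library; blue symbols are wild-type and orange symbols the knockout-labelled libraries, with circles for replicate 1 and triangles for replicate 2. For 9 of the 10 genes the highest point is the second wild-type library; Thy1 is the exception.

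Sparc, a calcium-binding matricellular protein also abundant in endothelium, was the most abundant of the 10 genes in every library. It measured 180 and 764 (wild-type) versus 79.2 and 82.9 FPKM (knockout-labelled). The groups did not overlap, and the second wild-type library was 4.25-fold above the first. On the log2(FPKM + 1) scale the group means differed by -2.18 (SE 0.76, n = 2 a group; limma, adjusted p = 0.12). Postn encodes periostin, an integrin ligand laid down by activated fibroblasts. It measured 81.1 and 157 (wild-type) versus 46.4 and 49.2 FPKM (knockout-labelled). Both wild-type values were higher, and the difference was -1.22 (SE 0.38; limma, adjusted p = 0.098).

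The 3 proteoglycans differed in how far the first wild-type library stood above the knockout-labelled libraries. Bgn, the biglycan gene, measured 24.2 and 40.8 (wild-type) versus 11.2 and 12.7 FPKM (knockout-labelled). Lum, which encodes lumican, measured 16.5 and 42.7 (wild-type) versus 8.54 and 9.39 FPKM (knockout-labelled). Dcn, which encodes decorin, measured 30.6 and 95.2 (wild-type) versus 29.8 and 24.9 FPKM (knockout-labelled). For Bgn and Lum the lower wild-type value stood clear of both values labelled knockout, while that of Dcn lay just above the higher one. For all 3 genes this gap was smaller, in FPKM, than that between the wild-type libraries. The log2(FPKM + 1) differences were -1.33 for Bgn (SE 0.32; limma, adjusted p = 0.067), -1.48 for Lum (SE 0.51; adjusted p = 0.12) and -0.96 for Dcn (SE 0.61; adjusted p = 0.31). The FPKM ratio of Dcn to Lum was 1.85 and 2.23 (wild-type) versus 3.50 and 2.65 (knockout-labelled). Decorin message thus outweighed lumican message in all 4 libraries. The ratios did not overlap between groups. For single gene levels the groups did not overlap in 71.4% of all tested genes, and no such share was taken over ratios of gene pairs.

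Fn1 encodes fibronectin, an integrin ligand made by fibroblasts and by other cells, among them macrophages. It measured 1.47 and 6.37 (wild-type) versus 3.22 and 4.33 FPKM (knockout-labelled). Both values labelled knockout lay between the wild-type values, and the log2(FPKM + 1) difference was 0.15 (SE 0.61; limma, adjusted p = 0.88). Its sign depended on single libraries: it differed by -0.64 when the first wild-type library was left out, by 0.94 when the second was, and by -0.02 without the second knockout-labelled library.

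The receptor genes stood between 0.171 and 2.60 FPKM. Pdgfrb measured 1.01 and 2.60 (wild-type) versus 0.561 and 1.20 FPKM (knockout-labelled), and the groups overlapped (difference in log2(FPKM + 1) -0.54, SE 0.39; limma, adjusted p = 0.36). Pdgfra measured 0.220 and 1.50 (wild-type) versus 0.289 and 0.171 FPKM (knockout-labelled); it was not tested. Taking the longest coding transcript in GENCODE M21, the Pdgfra values rest on roughly 35, 200, 42 and 27 reads in that library order. Only the second wild-type library therefore gave Pdgfra more than 42 reads. The 2 Pdgfrb values labelled knockout differed 2.14-fold, the widest gap of any member within that pair, where Sparc differed 1.05-fold; by the same estimate they rest on roughly 65 and 150 reads.

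Fap measured 0.514 and 2.21 (wild-type) versus 0.802 and 1.05 FPKM (knockout-labelled), again with overlap (difference in log2(FPKM + 1) -0.20, SE 0.42; limma, adjusted p = 0.76). Without the second wild-type library the sign turned, to 0.35.

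Thy1 was the single member higher in both knockout-labelled libraries. It measured 0.519 and 1.94 (wild-type) versus 8.25 and 6.13 FPKM (knockout-labelled), a 5.86-fold higher mean. The groups did not overlap, and the difference in log2(FPKM + 1) was 1.94 (SE 0.42; limma, adjusted p = 0.056). Thy1 passed when libraries were rescaled to a common total (limma, adjusted p = 0.049; 15.5% of tested genes passed there), after quantile normalization (0.047; 16.1%) and with a filter at 5 FPKM (0.048; 23%). With 1 library left out its adjusted p ranged from 2.9e-06 to 0.41. The 10 T cell markers moved with it. All 10 were higher in both knockout-labelled libraries, as were 39.3% of all tested genes. By test 9 of 10 rose (limma, adjusted p under 0.05), against 9.51% of all tested genes. This list, like the others here, was chosen with earlier results of these data known. The summed level of the 10 markers was 14.4 and 57.7 FPKM in wild-type and 1569 and 1484 FPKM in the knockout-labelled libraries. Cd3g, a CD3 chain, went from 4.35 and 13.5 FPKM to 421 and 388 FPKM. Their part in the Thy1 difference was not tested. In bulk RNA, more cells of a type cannot be told apart from more RNA per cell.

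**Figure D2:**
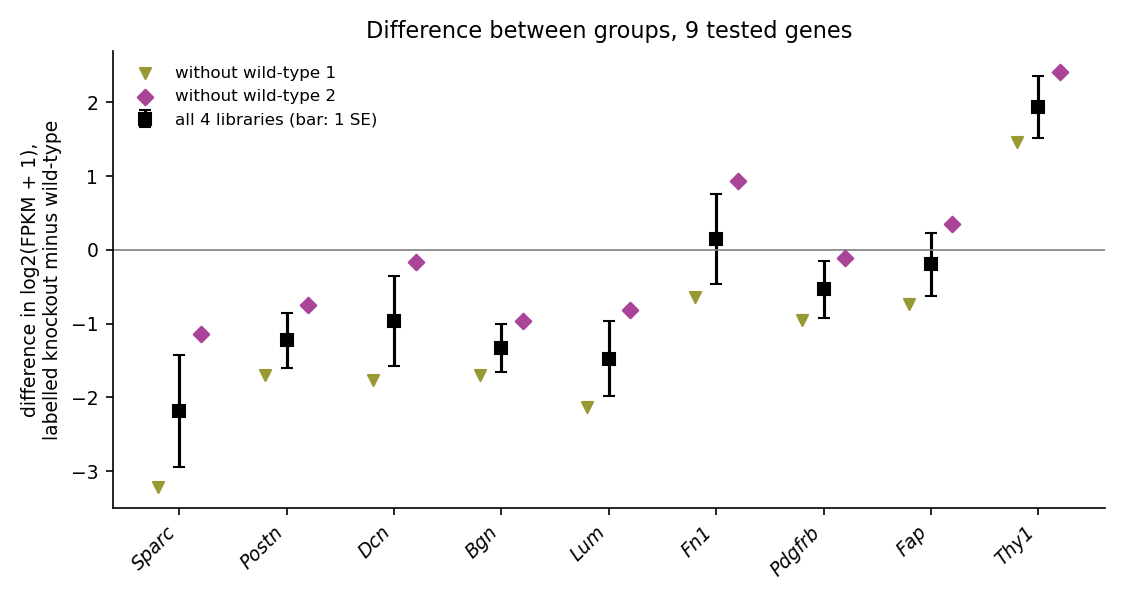
Difference in log2(FPKM + 1), knockout-labelled libraries minus wild-type, for the 9 tested genes: black squares with bars of 1 SE use all 4 libraries, triangles leave out the first wild-type library and diamonds the second. Fn1 and Fap change sign between the 2 partial fits, while Sparc runs from -3.22 to -1.14 and Thy1 from 1.47 to 2.42.

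As a ratio, the gap between the wild-type libraries was larger than that between the knockout-labelled libraries for each of the 10 genes. The second wild-type library was above the first for 10 of 10 members, and by at least 2-fold for 8; among the tested members these counts were 9 and 7 of 9, against 47.8% and 17.1% of all tested genes. The ratio ran from 1.69 for Bgn to 6.80 for Pdgfra. Leaving out either wild-type library shows how much rests on the other. Without the first, 9 of 9 members passed (69.3% of all tested genes did), with a median difference of -1.69, and without the second, 6 of 9 passed (71% of all tested genes), with a median of -0.16. In both fits a single wild-type library is assumed to vary like the pair labelled knockout. Without the second wild-type library Dcn differed by -0.16 (limma, adjusted p = 0.31) and Pdgfrb by -0.12 (adjusted p = 0.67), whereas the value was, for Sparc, -1.14, for Bgn -0.96, for Lum -0.82 and for Postn -0.75.

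Markers of other cells also moved between the wild-type libraries. The 10 macrophage markers summed to 600.02 and 14818 (wild-type) versus 1517 and 1401 FPKM (knockout-labelled), with Lyz2, the lysozyme gene, at 238 and 9165 FPKM in wild-type. The 10 endothelial markers summed to 42.6 and 528 (wild-type) versus 28.4 and 30.7 FPKM (knockout-labelled). Pecam1 was the largest part of the knockout-labelled sums, at 5.78 and 42.8 (wild-type) versus 17.5 and 16.6 FPKM (knockout-labelled). It was the only endothelial marker whose first wild-type value lay below both knockout-labelled values. Egfl7, an endothelial growth factor, was at 4.49 and 243 FPKM in the wild-type pair. No macrophage or endothelial marker was at 0 in any library. Of 6 adipocyte markers, Plin1 and Lep were at 0 in all 4 libraries, and the sum of the list (72.5 and 382 versus 20.1 and 25.4 FPKM) was mostly Fabp4, which endothelium also makes. The 9 luminal epithelial markers, which define the labelled cell type, were present in all 4 libraries but summed to 12213 and 2718 (wild-type) versus 722 and 745 FPKM (knockout-labelled), with Krt8 at 4653 and 929 versus 255 and 259 FPKM. From the first to the second wild-type library the sum of the 10 matrix genes changed 3.32-fold, that of macrophage markers 24.7-fold and that of endothelial markers 12.4-fold. The part of these cells in the matrix differences was not tested.

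**Figure D3:**
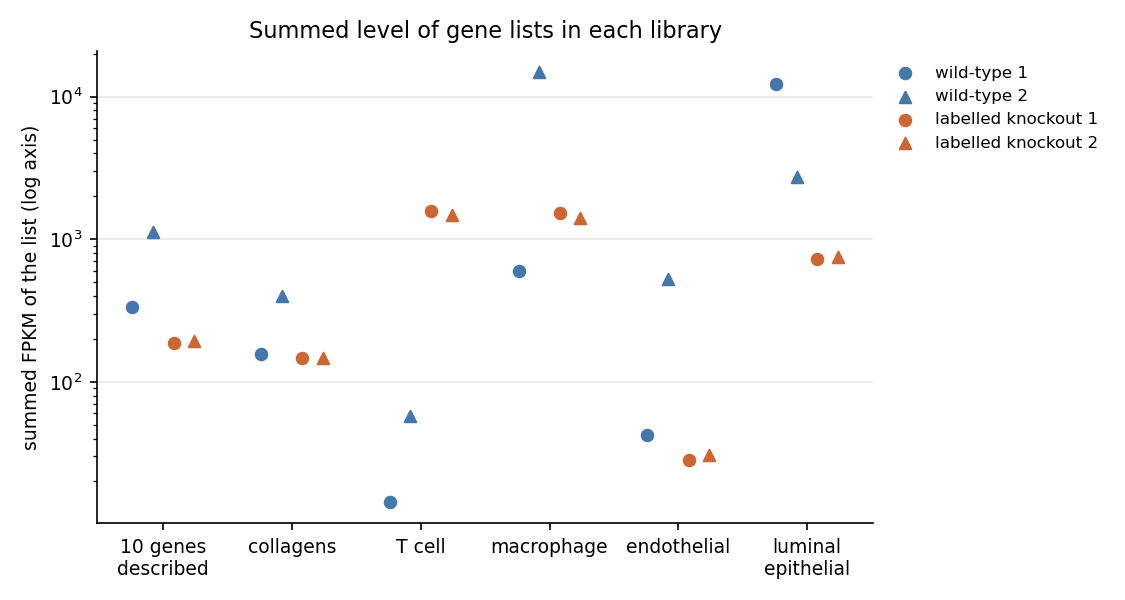
Summed FPKM (log axis) of the 10 described genes and of 5 marker lists in each library, with the colours and symbols of the plot of gene levels. The described genes, collagens, macrophage and endothelial markers are highest in the second wild-type library, T cell markers in the knockout-labelled libraries, and luminal markers in the first wild-type library.

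Fibrillar collagens, the main product of fibroblasts, gave a scale on which to read the members. None of 9 collagen genes passed, where 16.5% of all tested genes did (limma). At an unadjusted p under 0.05 there was 1 collagen gene, against 39.5% of all tested genes. The collagens' median difference in log2(FPKM + 1) was -0.71. It moved to -1.36 on leaving out wild-type replicate 1 and to -0.21 on leaving out replicate 2. The geometric mean of Col1a1, Col1a2 and Col3a1 was 38.7 and 98.6 FPKM in wild-type and 37.7 and 37.8 FPKM in the knockout-labelled libraries, so the first wild-type library was close to the knockout-labelled libraries in collagen message. Col3a1, the most abundant of the 9, measured 64.9 and 182 (wild-type) versus 70.7 and 69.4 FPKM (knockout-labelled). Each member was then divided by that geometric mean, a ratio chosen after the values were seen.

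Relative to collagen, Sparc, Lum, Bgn and Postn were lower in both knockout-labelled libraries. The Sparc ratio was 4.65 and 7.75 (wild-type) versus 2.10 and 2.19 (knockout-labelled). The Lum ratio was 0.427 and 0.433 (wild-type) versus 0.227 and 0.248 (knockout-labelled). The wild-type libraries, which differed 2.59-fold in Lum FPKM, were thus nearly equal per unit of collagen. The Bgn ratio was 0.625 and 0.413 (wild-type) versus 0.296 and 0.336 (knockout-labelled), and the Postn ratio 2.10 and 1.59 against 1.23 and 1.30. Dcn did not separate the groups on this scale, with ratios of 0.790 and 0.965 (wild-type) versus 0.792 and 0.658 (knockout-labelled). The Fn1 ratio was 0.0381 and 0.0647 (wild-type) versus 0.0854 and 0.114 (knockout-labelled), without overlap. The ratios of Pdgfra, Pdgfrb and Fap overlapped between groups, and that of Thy1 was 0.0134 and 0.0197 (wild-type) versus 0.219 and 0.162 (knockout-labelled). In all, 4 of 10 ratios were lower in both knockout-labelled libraries (12.4% of all tested genes were), 2 were higher in both (49.1% of all tested genes) and 4 overlapped. With Col1a2 alone as the denominator Fap also separated (higher), and with Col3a1 alone Dcn did (lower).

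**Figure D4:**
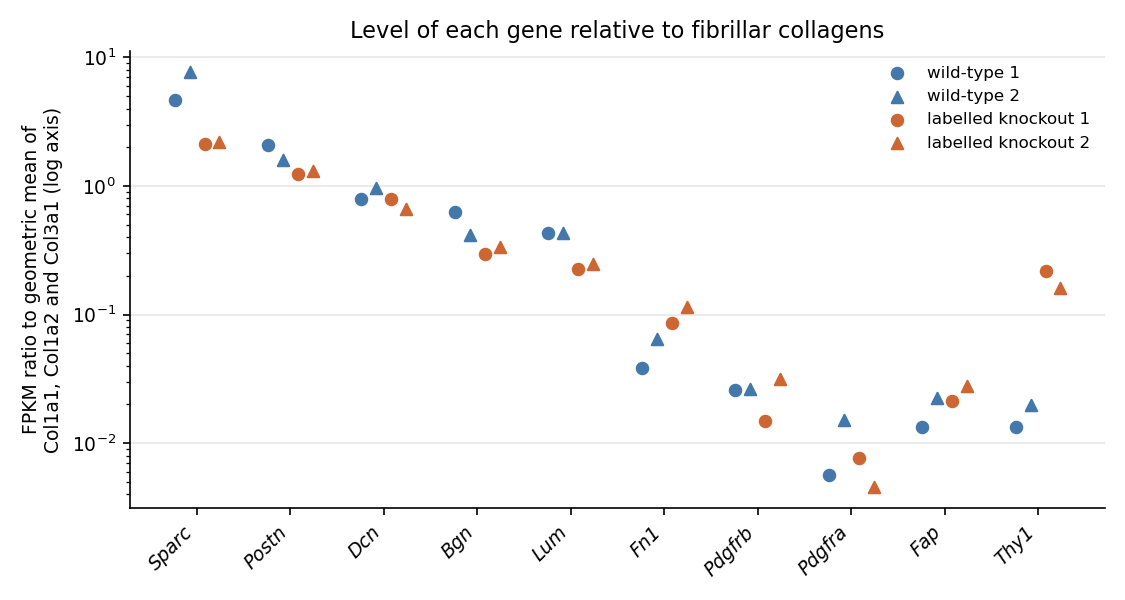
FPKM of each gene divided by the geometric mean FPKM of Col1a1, Col1a2 and Col3a1 (log axis) in each library, with the colours and symbols of the plot of gene levels. Sparc, Postn, Bgn and Lum are lower in both knockout-labelled libraries, Fn1 and Thy1 are higher, and Dcn, Pdgfrb, Pdgfra and Fap overlap.

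Ligand genes of the PDGF receptors passed the threshold; whether they differed from the receptor genes in this was not tested. Of 4 PDGF ligand genes 3 were tested and 3 fell, against 6.99% of all tested genes. Like the lists that follow, the ligand list was chosen with earlier results of these data known. Pdgfa, whose product acts mainly through PDGFRα, measured 33.4 and 69.5 (wild-type) versus 7.78 and 6.52 FPKM (knockout-labelled) (difference in log2(FPKM + 1) -2.60, SE 0.42; limma, adjusted p = 0.037). Pdgfc, another PDGFRα ligand, fell from 3.76 and 4.11 to 0.796 and 0.715 FPKM (adjusted p = 0.031). Pdgfb, the ligand that recruits pericytes, fell from 3.42 and 2.99 to 0.839 and 1.08 FPKM (adjusted p = 0.046). Pdgfd was listed at 0 and at 1.92 FPKM in wild-type, at 0.421 and 0.537 FPKM in the knockout-labelled libraries, and was not tested. For Pdgfb and Pdgfc the wild-type libraries were close to each other, in contrast to the receptors. The luminal epithelial markers were lower in the same libraries; their part was not tested. The 3 calls ended without either knockout-labelled library (limma, adjusted p from 0.39 to 0.45), and that of Pdgfb also with a pseudocount of 0.1 (0.055) and with a common total (0.055).

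Among 43 other matricellular and fibre proteins 31 were tested, 6 fell and none rose, with 25 not passing. Of all tested genes 6.99% fell and 9.51% rose. Their median difference was -1.21 on the log2(FPKM + 1) scale, and -0.73 without the second wild-type library. Sparcl1, the closest relative of Sparc and also made by endothelium, measured 85.9 and 121 (wild-type) versus 13.5 and 15.2 FPKM (knockout-labelled) (-2.74, SE 0.25; limma, adjusted p = 0.024). Smoc2, of the same family, fell from 21.2 and 25.3 to 4.17 and 4.03 FPKM (adjusted p = 0.024). Mgp, the matrix Gla protein that holds back calcification, fell from 165 and 182 to 37.2 and 25.5 FPKM (adjusted p = 0.025), and Matn2, a matrilin, from 2.60 and 2.45 to 0.782 and 0.491 FPKM (adjusted p = 0.042). In these 4 genes the wild-type values lay closer together, as a ratio, than in any of the 10 described genes. These 4 were named for their low p-values, which favours genes with close wild-type values. The closeness therefore sets no contrast between this list and the 10 genes. The FPKM ratio of Sparc to Sparcl1 was 2.09 and 6.34 (wild-type) versus 5.86 and 5.44 (knockout-labelled). The other calls, named after their values were seen, were Cyr61, a CCN family protein and YAP target (925 and 399.5 versus 96.5 and 109 FPKM), and the fibulin gene Fbln7 (3.14 and 1.99 versus 0.494 and 0.172 FPKM). All 6 calls ended without either knockout-labelled library (limma, adjusted p from 0.36 to 0.44). Those of Matn2 and Fbln7 also ended with a pseudocount of 0.1 (0.057 and 0.060), those of Cyr61 and Fbln7 with a common total (0.051 and 0.054), and that of Fbln7 after quantile normalization (0.053).

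Most of the 13 other small leucine-rich proteoglycans were hardly detected, and 6 stayed below 1 FPKM in every library. The 3 that could be tested did not pass, where 16.5% of all tested genes did (limma). At an unadjusted p under 0.05 there were 0, against 39.5% of all tested genes. Ogn, the osteoglycin gene, measured 1.26 and 4.56 (wild-type) versus 1.07 and 0.648 FPKM (knockout-labelled) (adjusted p = 0.25). Aspn, which encodes asporin, was at 0.792 and 3.93 versus 3.12 and 4.34 FPKM (adjusted p = 0.45). Chad, which encodes chondroadherin, was at 3.65 and 1.39 versus 0.433 and 1.21 FPKM (adjusted p = 0.22). Dcn, Bgn and Lum were therefore the most abundant genes of this class in each library.

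Of 30 other fibroblast genes 19 were tested, 1 fell (6.99% of all tested genes did), 1 rose (9.51% did) and 17 did not pass. Their median difference in log2(FPKM + 1) was -0.84 (-1.40 on leaving out wild-type replicate 1 and -0.25 on leaving out replicate 2). Gsn, the actin-severing gelsolin, fell from 58.2 and 88.4 to 26.4 and 26.8 FPKM (limma, adjusted p = 0.047). Dpp4, a surface peptidase of some fibroblasts and also the T cell antigen CD26, rose from 1.42 and 0.806 to 12.2 and 14.4 FPKM (adjusted p = 0.024). Dpp4 and Thy1, both also T cell antigens, were thus higher where the T cell markers were higher; the part of T cells in this was not tested. Of this list Ly6a and S100a4, named after their values were seen, were also higher in both knockout-labelled libraries. Ly6a was at 36.5 and 76.3 versus 111 and 118 FPKM (limma, adjusted p = 0.13). S100a4 was at 2.45 and 66.1 versus 159 and 153 FPKM (limma, adjusted p = 0.19). Serpinf1, which encodes the antiangiogenic factor PEDF, was at 27.5 and 56.2 versus 13.6 and 10.7 FPKM (adjusted p = 0.073), and the chemokine gene Cxcl12 at 5.08 and 7.52 versus 3.20 and 2.84 FPKM (adjusted p = 0.11). The Gsn and Dpp4 calls ended without either knockout-labelled library, and that of Gsn also with a pseudocount of 0.1 (limma, adjusted p = 0.052).

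Mural cells, which carry PDGFRβ, were followed through 9 further genes, of which 4 were tested and 1 fell (6.99% of all tested genes did). Anpep, an aminopeptidase of pericytes and of several epithelia and myeloid cells, fell from 7.94 and 5.18 to 0.714 and 0.650 FPKM (limma, adjusted p = 0.031), a call that ended without either knockout-labelled library (0.39 and 0.40). Mcam, the CD146 adhesion molecule of vessel walls, was at 10.1 and 27.7 versus 2.89 and 4.02 FPKM (adjusted p = 0.080). Rgs5, a common pericyte marker, was at 3.11 and 4.98 versus 2.89 and 3.34 FPKM (adjusted p = 0.53). The potassium channel gene Kcnj8 was at 0.305 and 1.03 versus 1.62 and 2.58 FPKM (adjusted p = 0.13). Pdgfrb and Rgs5 were thus both below 5 FPKM in every library, with overlapping groups.

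None of 15 tested surface receptors of the members' proteins passed, where 16.5% of all tested genes did (limma). At an unadjusted p under 0.05 there were 5, against 39.5% of all tested genes. The receptors' median difference in log2(FPKM + 1) was -0.997. Itgb1, the common β1 integrin chain of fibronectin receptors, measured 99.7 and 77.9 (wild-type) versus 44.8 and 52.4 FPKM (knockout-labelled) (adjusted p = 0.073). Itgb5, whose product with the αv chain binds periostin, was at 31.7 and 107 versus 8.99 and 8.62 FPKM (adjusted p = 0.069). Itga4, a leukocyte integrin chain that binds fibronectin, was listed at 0 and at 0.876 FPKM in wild-type and was at 4.16 and 3.49 FPKM in the knockout-labelled libraries (adjusted p = 0.053). Tlr4, a receptor of soluble biglycan, was at 2.62 and 2.88 versus 1.14 and 1.14 FPKM (adjusted p = 0.066). Itga4 was thus higher in the libraries in which the integrin chains Itgb1 and Itgb5 were lower. Across all 6 related lists, 12 of 74 tested genes passed (16.2%), against 16.5% of all tested genes with both directions pooled. Of the 12, 11 were lower and 1 higher, where 6.99% of all tested genes were called lower and 9.51% higher.

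**Figure D5:**
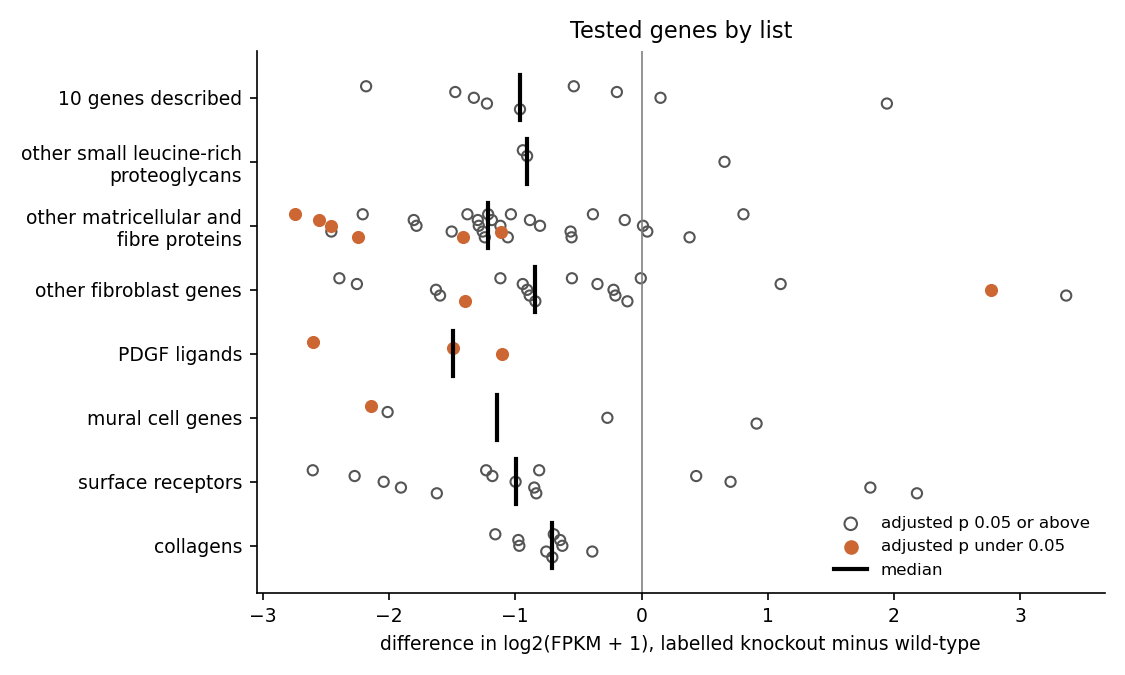
Difference in log2(FPKM + 1), knockout-labelled libraries minus wild-type, for tested genes of the described group, the 6 related lists and collagens; filled points have an adjusted p under 0.05 (limma) and vertical bars are medians. Medians run from -1.49 for PDGF ligands to -0.71 for collagens, and the PDGF ligands are the only list with every tested gene filled.

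The genes whose pattern over the 4 libraries was most like that of Postn were sought among 6545 tested genes with a mean of at least 5 FPKM, by the root mean square difference of centred log2(FPKM + 1). They were Fam213b (0.0542), the collagen VI gene Col6a2 (0.0607), the purinergic channel gene P2rx4 (0.0645), the lysosomal galactosidase gene Glb1 (0.0723) and Efemp2, a fibulin needed for elastic fibres (0.0727). Those most like Thy1 were Smap2 (0.0724), Chd1l (0.0794), the glucocorticoid-induced gene Tsc22d3 (0.0899) and Ranbp9 (0.118). With 4 libraries and 6545 genes, close matches of this kind are a description only.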

How the data were processed

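The authors deposited 1 table of FPKM values for 4 RNA-seq libraries, made per the labels' protocols from Trizol RNA of sorted cells with a Clontech SMARTer low-input kit. The header names no unit; FPKM was read from the values, whose column sums differ. The submitters' processing notes name mm9; for aligner and counter: not given in the sources used here. Of 24043 rows, 92 spike-ins, all at 0, were left out. Groups came from sample titles. A gene entered the test where 2 or more libraries reached 1 FPKM. The test was limma 3.58.1 (R 4.3.3) with values as log2(FPKM + 1), a trended robust prior, genotype as sole term and Benjamini-Hochberg adjustment. This scale understates changes of low genes. The model was run on simulated data, where only the direction of large changes was required to be right. That says little on differences of the size seen in the members. Relative depth came from whole-number ratios among values below 0.1 FPKM (50.4 to 60.4% of ratios, within 0.2%), and absolute depth from 72 genes with a single GENCODE M21 transcript, so read numbers are estimates; no count model was fitted. The members and gene lists were chosen with earlier results of these data known. Named were all members, Kdm1a, per related list the 4 lowest p-values among genes averaging 1 FPKM or more, the most abundant marker of some other cell types, and the 5 closest patterns to Postn and Thy1, of which 1 is not reported here. Adgre1 was matched as Emr1. Alternatives covered pseudocount, filter, scaling, prior, each library left out and a replicate block.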

Additional observations from a re-analysis of the deposited data

How the results depend on the processing

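Of 105 alternative values for the 9 tested members, 85 kept direction and side of the threshold, 17 passed the threshold where the full fit did not, and 3 changed sign, 1 of which also passed (Fn1 without the first wild-type library), for 18 passing in all. Apart from Thy1 with a filter at 5 FPKM, a common total or quantile normalization, every passing value came from a fit without a wild-type library. In those fits a single wild-type library is assumed to vary like the pair labelled knockout, and most of all tested genes passed too. The changes of sign were those of Fn1 and Fap. Fn1 ran from -0.64 (first wild-type library left out) to 0.94 (second left out). It was -0.02 when the second knockout-labelled library was left out. Fap ran from -0.74 to 0.35 over the same wild-type omissions. Among the related genes named by rule Aspn also changed sign, from -0.073 (first wild-type library left out) to 1.39 (second left out). The other related genes were not followed in this way. Some of them, such as Vim and Tgfbi, named after their values were seen, also had both knockout-labelled values between the wild-type values. Vim was at 39.8 and 280 versus 108 and 104 FPKM, and Tgfbi at 6.25 and 66.1 versus 28.6 and 26.8 FPKM. The number of members called, 0 with all libraries, was 1 with a filter at 5 FPKM, 1 with a common total and 1 with quantile normalization (Thy1 each time), and 0 to 9 with 1 library left out. The number of all genes called, 1837, was 1 with no filter on low values and 0 to 7912 with 1 library left out. The 12 related genes called became 0 with no filter and 0 to 68 with 1 library left out. The 0 came without either knockout-labelled library, where the spread is that of the wild-type pair alone. The 68 came without the first wild-type library, where the spread is that of the knockout-labelled pair alone. The cause of these changes in number was not tested. With the replicate number as a block, 501 genes, 0 members and 4 related genes (Sparcl1, Smoc2, Mgp and Dpp4) passed; the calls of Pdgfa, Pdgfb, Pdgfc, Matn2, Cyr61, Fbln7, Gsn and Anpep ended (limma, adjusted p from 0.051 to 0.099). The numbers give no shared animal, litter or day, and the deviations of same-numbered libraries had a correlation of -0.06 over 11138 genes, so pairing is not supported. With a filter at 5 FPKM, Fn1, Pdgfrb and Fap had no value. Pdgfra, Pdgfrb, Fap and Thy1 rest on under 100 reads in some libraries by the rough depth estimate, which limits what their values can show.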
